A study of Mus musculus with 6 samples.

Results

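The genes described here code for parts of the axoneme, the microtubule core of the sperm tail and of motile cilia: axonemal dyneins, radial spokes, the nexin-dynein regulatory complex, tektins and cilia- and flagella-associated proteins (Cfap). Members were all rows of the expression table whose gene symbol begins with Dnah, Dnai, Dnal, Cfap, Rsph, Tekt or Drc followed by a digit (or by i, for Dnali1). That gave 68 of 36842 rows, of which 67 are genes for proteins and 1, Dnah2os, is a transcript antisense to Dnah2. No symbol matched Dnai, since the table names the intermediate chain genes Dnaic1 and Dnaic2, which are given below with the other axonemal genes of unlike names. The measurements were RNA-seq values (FPKM, fragments scaled by transcript length and by the total of the library) in 6 libraries. Their labels give the mouse line GC-2spd(ts), immortalised spermatocytes of wild-type genotype, with testis as the source. In the 3 Sal_CP libraries, cells had received 2 mM cyclophosphamide, an alkylating drug that damages germ cells, together with 100 µM salidroside, a phenylethanoid glycoside, for 24 h. In the 3 CP libraries they had received 2 mM cyclophosphamide alone for 24 h, so every library carries the cyclophosphamide exposure. The series asks how salidroside raises Gpx4, and the comparison below is of the axonemal genes under the same contrast.

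In an axoneme, outer and inner dynein arms on each doublet microtubule slide it along its neighbour. Radial spokes pass signals from the central pair of microtubules to the arms, the nexin-dynein regulatory complex links neighbouring doublets, and tektins and other inner proteins line the inside of the doublets. In the mouse testis these genes are switched on in meiotic spermatocytes and round spermatids, before the tail is built. Some subunits come as paralogs, with a form for sperm tails and another for epithelial cilia.

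In their markers the libraries held more than the labelled spermatocyte line, with late spermatid and epididymal transcripts at high levels. These values are at odds with the label of a single cell line, and the source of the RNA was not tested. Spermatocyte markers ranged from Dmc1, the meiotic recombinase, with a mean of 0.198 FPKM over the 6 libraries, to Pgk2, a germ cell phosphoglycerate kinase, with 982.2 FPKM, and the median of the 14 was 1.71 FPKM. The 10 late spermatid markers (Prm1, Prm2, Tnp1, Tnp2, Smcp, Odf1, Akap4, Oaz3, Gapdhs and Spem1) summed to 47760, 66870 and 78740 FPKM in Sal_CP, against 52860, 55170 and 33130 FPKM in CP. Crisp1, a secreted protein of the epididymis, had 1423 to 2123 FPKM in Sal_CP and 3074 to 3521 FPKM in CP, while Lcn9, another epididymal gene, was listed at 0 in all 6 libraries. Of the 8 epididymal markers, 3 had a higher mean in Sal_CP and 4 a lower one. Adam7 averaged 73.6 FPKM in Sal_CP against 61.0 FPKM in CP, and Cst8 39.6 against 25.7 FPKM, both with overlap. Mitochondrially encoded genes took 29.0 to 38.1% of FPKM in Sal_CP and 36.6 to 50.4% in CP. In RNA of mixed cells, fewer cells of a type and less RNA per cell cannot be told apart. The labels do not say whether libraries of 1 group stem from separate cultures. A p-value therefore reflects the spread among these libraries alone, which may be technical. Read depth is unknown.

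RFX transcription factors bind the X-box, a motif found at many ciliary genes, and Rfx2 was the most abundant RFX gene here, with 32.9, 45.5 and 39.1 FPKM in Sal_CP, against 37.9, 26.0 and 20.5 FPKM in CP, with overlap. RefSeq promoter windows (GRCm38.p6, 250 bases before to 50 bases after the start) were found for 56 of the 68 members, and 7 of the 56 (12.5%) held an X-box on either strand, against 1.75% of 27025 genes with a window. The 7 were Tekt2, Rsph3b, Cfap45, Cfap298, Cfap58, Cfap44 and Cfap99. The shorter motif GTTGCC, which can form an arm of the X-box and so overlaps with it, stood in 19 of the 56 (33.9%), against 14.1% of all genes with a window. It was in the windows of 3 of 5 tektins, 4 of 9 inner arm heavy chains and 0 of the 5 outer arm heavy chains. The 4 were Dnah10 and the near-identical copies Dnah7a, Dnah7b and Dnah7c, whose matches are not independent. The cAMP response element TGACGTCA was in 1 of 56 windows (1.79%), that of Dnah6, against 2.03% of all, and TATAAA was in 3 of 56 (5.36%), against 15.7% of all. A match describes letters in a window and is not a bound site. The X-box is in capitals in the first 5 windows printed here, which show how its distance from the start differs between genes. Tekt1 is shown beside its paralog Tekt2, because it holds no X-box; its capitals mark GTTGCC on either strand. All are printed 5′ to 3′ on the strand of the gene.
Tekt2 (chr4:126325639-126325938, minus strand): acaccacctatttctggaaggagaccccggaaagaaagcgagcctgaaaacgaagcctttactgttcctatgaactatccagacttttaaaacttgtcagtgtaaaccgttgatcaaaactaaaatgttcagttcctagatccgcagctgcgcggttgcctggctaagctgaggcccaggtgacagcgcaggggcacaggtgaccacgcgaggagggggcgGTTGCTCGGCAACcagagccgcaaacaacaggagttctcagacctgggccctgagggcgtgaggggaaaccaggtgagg
Rsph3b (chr17:6948307-6948606, minus strand): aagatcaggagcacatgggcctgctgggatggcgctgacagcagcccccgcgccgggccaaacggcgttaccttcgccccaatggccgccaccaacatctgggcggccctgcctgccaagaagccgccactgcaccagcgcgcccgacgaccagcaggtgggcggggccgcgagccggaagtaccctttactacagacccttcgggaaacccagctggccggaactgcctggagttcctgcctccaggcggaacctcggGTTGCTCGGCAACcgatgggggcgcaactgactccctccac
Cfap45 (chr1:172520880-172521179, plus strand): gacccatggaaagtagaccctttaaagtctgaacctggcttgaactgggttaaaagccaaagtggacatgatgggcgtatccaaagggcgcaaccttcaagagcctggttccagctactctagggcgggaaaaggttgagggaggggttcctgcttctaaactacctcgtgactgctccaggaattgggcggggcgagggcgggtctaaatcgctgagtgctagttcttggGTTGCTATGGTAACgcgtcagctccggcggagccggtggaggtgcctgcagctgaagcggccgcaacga
Cfap298 (chr16:90934800-90935099, minus strand): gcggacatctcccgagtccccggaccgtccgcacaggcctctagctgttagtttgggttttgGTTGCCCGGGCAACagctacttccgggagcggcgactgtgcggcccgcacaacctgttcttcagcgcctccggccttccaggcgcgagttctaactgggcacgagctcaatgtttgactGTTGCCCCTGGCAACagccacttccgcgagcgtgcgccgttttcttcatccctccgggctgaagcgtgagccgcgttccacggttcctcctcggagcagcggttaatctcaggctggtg
Cfap58 (chr19:47937462-47937761, plus strand): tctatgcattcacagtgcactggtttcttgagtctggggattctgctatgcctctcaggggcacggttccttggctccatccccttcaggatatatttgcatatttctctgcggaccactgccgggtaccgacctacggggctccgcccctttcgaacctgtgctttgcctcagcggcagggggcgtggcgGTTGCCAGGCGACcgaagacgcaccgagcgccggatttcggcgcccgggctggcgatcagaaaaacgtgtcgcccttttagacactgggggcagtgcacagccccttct
Tekt1 (chr11:72361833-72362132, minus strand): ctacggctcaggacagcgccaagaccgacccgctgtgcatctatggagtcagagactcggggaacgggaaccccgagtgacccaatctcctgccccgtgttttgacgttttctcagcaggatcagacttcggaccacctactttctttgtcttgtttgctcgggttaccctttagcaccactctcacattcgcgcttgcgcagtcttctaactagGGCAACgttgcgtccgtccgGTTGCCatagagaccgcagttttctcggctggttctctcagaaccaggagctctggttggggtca

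The X-box began 29 bases before the start in Tekt2, 19 before it in Cfap45 and 59 before it in Cfap58, while in Rsph3b it lay inside the first 50 transcribed bases. Cfap298, which codes for a factor in dynein arm assembly, held 2, beginning 188 and 69 bases before the start. The 7 genes with an X-box had mean FPKM 1.33 to 1.85 times as high in Sal_CP as in CP. That lies inside the range of the other members.

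As a group, the axonemal genes had higher values in Sal_CP than in CP. The mean FPKM was higher in Sal_CP for 65 of the 68 members (95.6%), while it was higher for 46.1% of all 32375 genes above 0 in any library. The 3 exceptions were the light chain genes Dnal1 and Dnal4 and the low Cfap97d2. The sum over the 68 members was 431.6, 530.4 and 551.3 FPKM in Sal_CP, against 223.4, 352.3 and 387.0 FPKM in CP, so every Sal_CP sum was above every CP sum. Their mean was 504.5 ± 63.9 (SD) in the 3 Sal_CP libraries and 320.9 ± 86.2 (SD) in the 3 CP libraries, a ratio of 1.57. The median ratio of group means was 1.65 over the 68 members, against 0.866 over all genes above 0. In 31 of the 68 members (45.6%) all 3 Sal_CP values lay above all 3 CP values, and in 0 they all lay below. The share with all Sal_CP values above all CP values was 5.17% of the genes above 0.

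No single member passed the test. limma, fitted on log2(FPKM + 1) over the 12241 genes whose mean reached 1 FPKM, called 9 genes (0.0735%) at an adjusted p below 0.05, all lower in Sal_CP, and 0 members. The filter kept 46 members and left out 22. Of the 46, 4 had a mean under 1 FPKM in CP and 0 in Sal_CP, so their count is no support for a direction. Among them 45 had a log2 change above 0 (39.5% of all genes tested), 20 had all Sal_CP values above all CP values (7.21% of all tested) and 18 had an unadjusted p below 0.05 with a higher value in Sal_CP (3.96% of all tested). Their median log2 change was 0.60, against -0.12 for all genes tested, and the range was -0.13 to 0.97. The smallest adjusted p of a member was 0.367, of Cfap65. In the authors' deposited table, 41 of the 68 members had a p below 0.05 with a higher value in Sal_CP (6.83% of genes above 0), and 1 member, the inner arm heavy chain Dnah7c, had a q below 0.05 with a higher value in Sal_CP (0.185% of genes above 0). The test behind those values is not given in the sources used here.

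CP replicate 1 was the lowest of the 6 libraries for 52 of the 68 members, against 11.4% of all genes above 0. Of the 46 members tested it was lowest for 36, against 15.1% of all genes tested. Without CP replicate 1, the median log2 change of the members tested was 0.38, the median ratio over the 68 was 1.42, 64 of the 68 means were higher in Sal_CP, and 34 members had all Sal_CP values above the remaining CP values. Of the 46 members tested, 23 had a log2 change that was over 1.5 times smaller without it or that turned sign. Without it, 7.85% of genes above 0 had all Sal_CP values above the CP values. Without Sal_CP replicate 1, 50 of the 68 members had all Sal_CP values above all CP values, against 9.85% of genes above 0. The 18 members with an unadjusted p below 0.05 became 3 without CP replicate 1, 5 without Sal_CP replicate 2 and 8 without Sal_CP replicate 3.

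**Figure D1:**
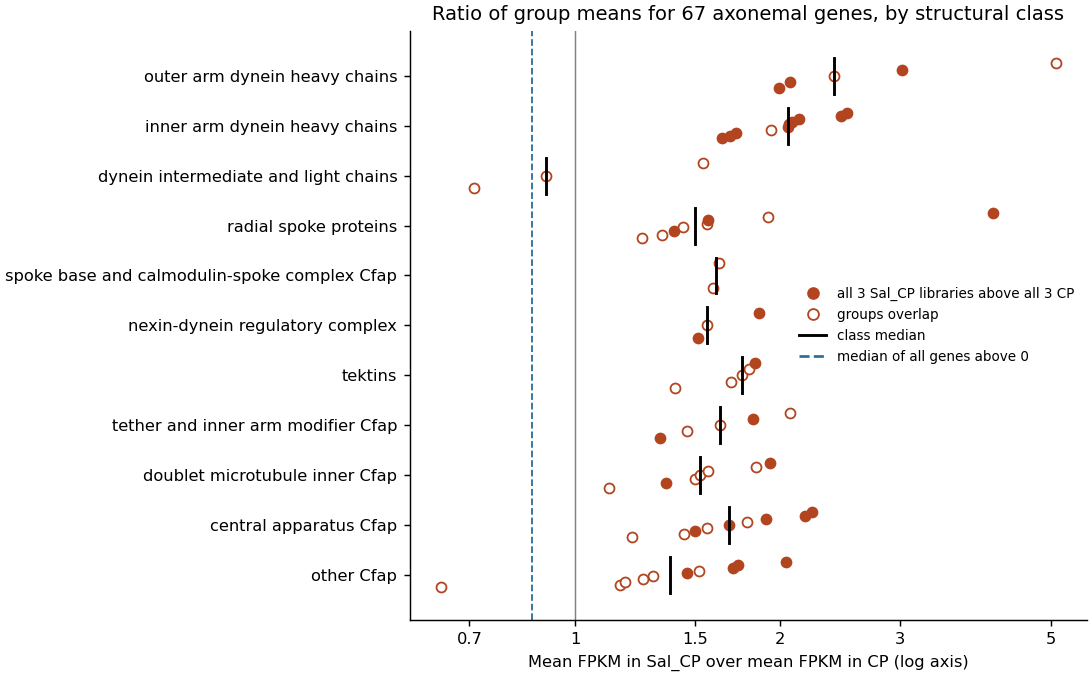
Ratio of mean FPKM in Sal_CP to mean FPKM in CP (horizontal, log axis) for the 67 protein-coding members, in rows by structural class; filled points are members whose 3 Sal_CP values all lie above their 3 CP values, black bars are class medians and the dashed line is the median of all genes above 0 (0.866). Every heavy chain gene lies above 1, and the members below 1 are Dnal1, Dnal4 and Cfap97d2.

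The dynein heavy chains, the motor subunits, had low levels and the highest ratios of summed FPKM among the classes. Their 15 genes summed to 15.8, 17.0 and 18.0 FPKM in Sal_CP, against 4.66, 8.41 and 11.8 FPKM in CP. The groups did not overlap, and the ratio of the means was 2.04. CP replicate 1 had the lowest sum, and whether the class order holds without it was not tested. The median log2 change of the outer arm chains tested was 0.73, and 0.49 without CP replicate 1. For 12 of the 15 all Sal_CP values lay above all CP values, against 5.17% of all genes above 0. Only 3 of the 15 passed the filter on low values, Dnah1, Dnah8 and Dnah17, so the other 12 have no test. Heavy chains took 3.65, 3.21 and 3.26% of the members' summed FPKM in Sal_CP, against 2.08, 2.39 and 3.06% in CP, with no overlap. This difference between classes was not tested.

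Of the outer arm heavy chains, which drive most of the beat force, the sperm-tail forms Dnah8 and Dnah17 were far above the forms of epithelial cilia. Dnah8 (chr17:30624354-30877365, GRCm38) had 2.95, 3.01 and 2.71 FPKM in Sal_CP, against 0.688, 1.45 and 2.05 FPKM in CP. The groups did not overlap, and the log2 change was 0.74 (SE 0.26, limma adjusted p = 0.420). Dnah17 (chr11:118021723-118130634) had 2.67, 2.92 and 3.45 FPKM in Sal_CP, against 0.768, 1.602 and 2.17 FPKM in CP, again without overlap. Its log2 change was 0.71 (SE 0.26, limma adjusted p = 0.439). Dnah8 and Dnah17 were at nearly equal levels, and their ratio ranged from 0.786 to 1.11 in Sal_CP and from 0.895 to 0.945 in CP.

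The ciliary heavy chains Dnah5, Dnah9 and Dnah11 together had 0.690, 0.325 and 0.749 FPKM in Sal_CP, against 0.303, 0.210 and 0.165 FPKM in CP. Dnah11 was the highest of the 3 in every library, with 0.636, 0.157 and 0.551 FPKM in Sal_CP, against 0.276, 0.159 and 0.126 FPKM in CP, and its groups overlapped. Dnah9 had 0.0507, 0.120 and 0.0950 FPKM in Sal_CP, against 0.0272, 0.0385 and 0.0222 FPKM in CP. Dnah5, whose loss stops cilia of the airway, had 0.00290, 0.0477 and 0.103 FPKM in Sal_CP, against 0, 0.0131 and 0.0172 FPKM in CP. All 3 were below the filter and have no test.

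**Figure D2:**
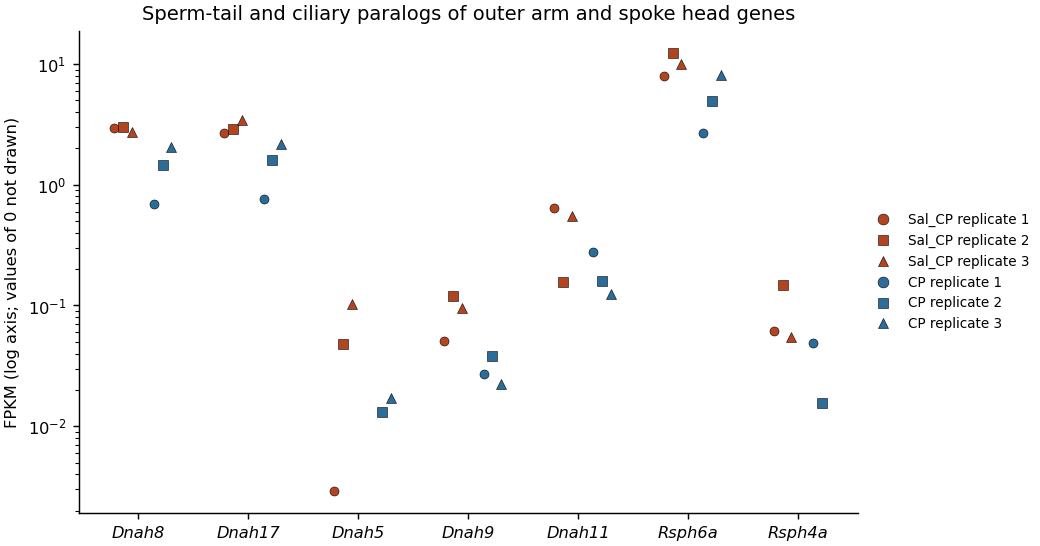
FPKM (log axis) of outer arm heavy chain and spoke head genes in each of the 6 libraries, Sal_CP left of CP for each gene; symbols mark the replicate, and values of 0 are not drawn. The sperm-tail forms Dnah8, Dnah17 and Rsph6a lie above the ciliary forms Dnah5, Dnah9, Dnah11 and Rsph4a in every library.

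The 10 inner arm heavy chain genes, which shape the bend, summed to 9.46, 10.8 and 11.1 FPKM in Sal_CP, against 2.90, 5.14 and 7.45 FPKM in CP, a ratio of 2.02. In 9 of the 10 all Sal_CP values lay above all CP values, against 5.17% of all genes above 0, Dnah3 being the exception. Dnah1, whose loss shortens sperm tails, had 1.37, 1.78 and 1.47 FPKM in Sal_CP, against 0.255, 0.643 and 1.27 FPKM in CP. It was the only member of this class with a test, at a log2 change of 0.60 (SE 0.26, limma adjusted p = 0.447), and 0.39 without CP replicate 1. Dnah6, an inner arm chain, had 1.24, 1.55 and 1.22 FPKM in Sal_CP, against 0.350, 0.669 and 0.933 FPKM in CP. Dnah2 and Dnah10, the chains of the multi-headed inner dynein, had ratios of 1.73 and 2.46, and Dnah12 had 1.65, all without overlap. Dnah3 had 0.865, 1.38 and 1.66 FPKM in Sal_CP, against 0.336, 0.701 and 0.972 FPKM in CP. Dnah14 had nearly the same level in the 3 Sal_CP libraries, 1.03, 1.04 and 1.03 FPKM, against 0.121, 0.476 and 0.639 FPKM in CP, and was chosen after its values were seen.

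Dnah7a, Dnah7b and Dnah7c lie on chromosome 1 as near-identical copies, so the split of reads between them is uncertain. Their sum was 2.30, 2.58 and 3.17 FPKM in Sal_CP, against 1.13, 1.27 and 1.67 FPKM in CP, and the ratio of means was 1.98 with no overlap. Dnah7c, which the authors' deposited table marks with q = 0.0208 and a ratio of 2.08, had 1.16, 1.12 and 1.42 FPKM in Sal_CP, against 0.520, 0.595 and 0.662 FPKM in CP.

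Of the light chain genes, only Dnali1 had a higher mean in Sal_CP. Dnali1, the light intermediate chain of inner arms, had 15.98, 21.1 and 24.2 FPKM in Sal_CP, against 9.70, 16.4 and 13.7 FPKM in CP. Its groups overlapped, and its log2 change was 0.60 (SE 0.31, limma adjusted p = 0.473). Dnal4, a light chain of the outer arm, had 4.79, 6.18 and 4.68 FPKM in Sal_CP, against 5.37, 6.31 and 5.59 FPKM in CP. It was the only tested member with a negative log2 change, -0.13 (SE 0.25, limma adjusted p = 0.791), and the sign turned with median of ratios scaling. Dnal1, another outer arm light chain, had 1.15, 0.191 and 0.900 FPKM in Sal_CP, against 0.902, 1.52 and 0.732 FPKM in CP, with overlap. The difference from the heavy chains was not tested.

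The radial spoke genes held the most abundant member. Rsph1 (chr17:31255019-31277383), of the spoke head, had 68.8, 89.5 and 86.8 FPKM in Sal_CP, against 35.3, 60.0 and 61.2 FPKM in CP. The groups did not overlap, and the log2 change was 0.67 (SE 0.34, limma adjusted p = 0.470) and 0.42 without CP replicate 1. All 8 spoke genes had a higher mean in Sal_CP, and their summed FPKM had a ratio of 1.52. In 3 of them all Sal_CP values lay above all CP values, against 5.17% of all genes above 0. Rsph1 alone held more FPKM than the 15 heavy chains together in every library.

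Rsph10b had 22.6, 28.6 and 26.3 FPKM in Sal_CP, against 25.6, 15.4 and 12.9 FPKM in CP. For it, unlike most members, CP replicate 1 was the highest CP library. Its log2 change was 0.55 (SE 0.32, limma adjusted p = 0.495), and it shares exons on its own strand with Gm42421 (up to 325 bases) and Pms2 (up to 85 bases), so its level is uncertain. Rsph3a and Rsph3b, near-identical copies of a spoke stalk gene, summed to 29.1, 34.3 and 36.9 FPKM in Sal_CP, against 14.9, 28.7 and 29.3 FPKM in CP, a ratio of 1.38 with overlap.

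The spoke head genes Rsph6a and Rsph4a are paralogs of sperm tails and of epithelial cilia. Rsph6a had 8.01, 12.3 and 10.02 FPKM in Sal_CP, against 2.70, 4.92 and 8.15 FPKM in CP. Its groups overlapped slightly, and it had the smallest unadjusted p of the class, with a log2 change of 0.91 (SE 0.34, limma adjusted p = 0.444) that was 0.58 without CP replicate 1. Rsph4a had 0.0619, 0.147 and 0.0548 FPKM in Sal_CP, against 0.0486, 0.0156 and 0 FPKM in CP. Its 3 Sal_CP values lay above its CP values, but the mean was 0.0546 FPKM over the 6 libraries and it has no test. Rsph9, of the spoke head, had a ratio of 1.56, and Rsph14 a ratio of 1.25, both with overlap.

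At the base of the spokes, Cfap206 had 29.2, 36.6 and 36.7 FPKM in Sal_CP, against 7.69, 23.1 and 32.3 FPKM in CP. CP replicate 1 lay far below the other 5 libraries, and the log2 change was 0.87 (SE 0.44, limma adjusted p = 0.470) with it and 0.30 without it. Cfap61, of the calmodulin-spoke complex, had 0.697 to 0.944 FPKM in Sal_CP and 0.302 to 0.782 FPKM in CP.

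In the nexin-dynein regulatory complex, Drc1, needed to assemble the complex, had 5.22, 5.24 and 5.04 FPKM in Sal_CP, against 1.26, 4.05 and 4.92 FPKM in CP. Its groups did not overlap, though CP replicate 3 reached nearly the Sal_CP level, and its log2 change was 0.60 (SE 0.34, limma adjusted p = 0.491) and 0.17 without CP replicate 1. Drc7 had 4.12, 4.198 and 6.11 FPKM in Sal_CP, against 1.13, 2.97 and 3.64 FPKM in CP, also without overlap. Its log2 change was 0.76 (SE 0.31, limma adjusted p = 0.446) and 0.42 without CP replicate 1. Drc3 had 1.30 to 1.83 FPKM in Sal_CP and 0.623 to 1.45 FPKM in CP.

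The 5 tektins, filament proteins inside the doublets, had a median log2 change of 0.89, which was 0.47 without CP replicate 1. An unadjusted p below 0.05 with a higher value in Sal_CP was found for 4 of the 5, against 3.96% of all genes tested. Tekt1 (chr11:72344722-72362442) had 24.0, 30.7 and 30.9 FPKM in Sal_CP, against 10.04, 15.2 and 21.4 FPKM in CP. It was the only tektin whose groups did not overlap, with a log2 change of 0.89 (SE 0.33, limma adjusted p = 0.439). Tekt2 (chr4:126322121-126325688), whose promoter window holds an X-box, had 21.5, 31.4 and 33.5 FPKM in Sal_CP, against 10.6, 15.5 and 24.8 FPKM in CP. Its log2 change was 0.78 (SE 0.35, limma adjusted p = 0.464) and 0.51 without CP replicate 1.

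Tekt3 had 12.5, 14.1 and 12.4 FPKM in Sal_CP, against 2.56, 5.83 and 13.7 FPKM in CP, and Tekt4 had 11.6, 19.5 and 16.2 FPKM in Sal_CP, against 3.38, 9.10 and 13.8 FPKM in CP. In Tekt3 and Tekt4, CP replicate 3 lay among the Sal_CP values and CP replicate 1 far below them. The log2 change of Tekt3, 0.97 (SE 0.43, limma adjusted p = 0.456), was the highest of all members tested and was 0.47 without CP replicate 1, and that of Tekt4 was 0.92 (SE 0.41, limma adjusted p = 0.464) and 0.43 without it. Tekt5, a tektin of sperm tails, had another order of libraries, with 3.00, 2.65 and 4.35 FPKM in Sal_CP, against 1.59, 4.30 and 1.25 FPKM in CP. Its log2 change was 0.45 (SE 0.33, limma adjusted p = 0.543).

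**Figure D3:**
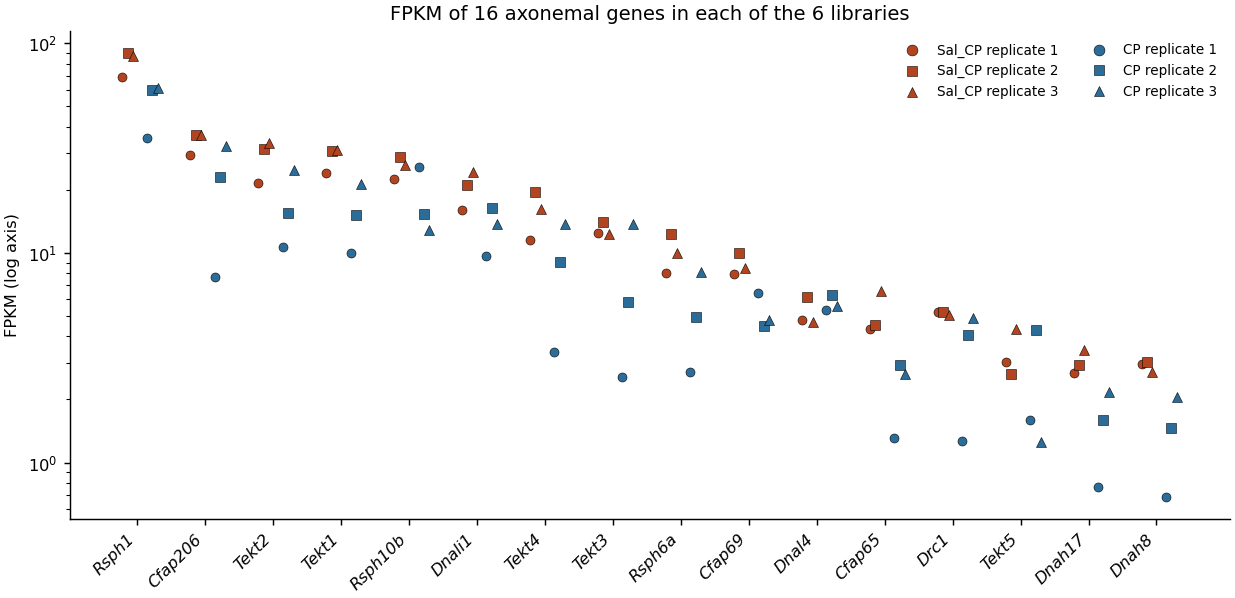
FPKM (log axis) of 16 axonemal genes in each of the 6 libraries, ordered by mean level, with Sal_CP left of CP for each gene; symbols mark the replicate. CP replicate 1 is the lowest point for most genes, while Rsph10b, Cfap69, Dnal4 and Tekt5 show other orders.

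The Cfap genes of the tether and the inner arms (Cfap43, Cfap44, Cfap57, Cfap73 and Cfap100) summed to 20.5, 20.6 and 33.2 FPKM in Sal_CP, against 9.34, 19.8 and 15.6 FPKM in CP. Cfap43, which with Cfap44 tethers the motor head to the doublet, had 6.08, 6.98 and 7.73 FPKM in Sal_CP, against 2.51, 4.76 and 4.11 FPKM in CP. Its groups did not overlap, and its log2 change was 0.75 (SE 0.27, limma adjusted p = 0.431). Cfap44 had 2.31, 1.96 and 1.96 FPKM in Sal_CP, against 1.23, 1.64 and 1.81 FPKM in CP, with a log2 change of 0.27 (SE 0.22, limma adjusted p = 0.566) that was 0.18 without CP replicate 1. Cfap57, the highest of this class, had 10.2, 9.14 and 18.7 FPKM in Sal_CP, against 4.29, 11.4 and 7.64 FPKM in CP, with overlap. Cfap73 and Cfap100, whose proteins guide inner arm activity in Chlamydomonas, had means over the 6 libraries of 1.16 and 1.29 FPKM, with higher means in Sal_CP and overlap.

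Of the 7 Cfap genes for inner proteins of the doublet, Cfap126 was the highest, with 12.5, 15.9 and 19.6 FPKM in Sal_CP, against 9.89, 13.8 and 7.76 FPKM in CP. Cfap161, an inner protein of the doublet, had the smallest unadjusted p of the class. It had 4.43, 5.51 and 4.51 FPKM in Sal_CP, against 1.86, 2.49 and 3.12 FPKM in CP, with no overlap and a log2 change of 0.75 (SE 0.25, limma adjusted p = 0.399). Cfap45 had 5.03, 6.53 and 6.28 FPKM in Sal_CP, against 1.36, 3.09 and 5.22 FPKM in CP, and Cfap53 had 5.77, 5.35 and 3.73 FPKM in Sal_CP, against 3.39, 4.68 and 5.18 FPKM in CP. Cfap53 differed little between the groups, with a log2 change of 0.13 (SE 0.27, limma adjusted p = 0.793) that was -0.01 without CP replicate 1. Cfap52, Cfap20 and Cfap77, the other inner proteins, averaged 4.23, 2.11 and 0.647 FPKM over the 6 libraries, and only Cfap20 was without overlap, at a ratio of 1.36.

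Among the 9 Cfap genes of the central apparatus, 5 had all Sal_CP values above all CP values, against 5.17% of all genes above 0. Cfap65, which had the smallest adjusted p of all members, had 4.32, 4.51 and 6.55 FPKM in Sal_CP, against 1.32, 2.93 and 2.66 FPKM in CP. Its log2 change was 0.91 (SE 0.28, limma adjusted p = 0.367) and 0.67 without CP replicate 1. Cfap69, the highest of the class, had 7.94, 10.04 and 8.52 FPKM in Sal_CP, against 6.44, 4.47 and 4.81 FPKM in CP. For Cfap69 CP replicate 1 was the highest CP library, and the log2 change was 0.66 (SE 0.26, limma adjusted p = 0.444) with it and 0.80 without it. Cfap99 had 3.75, 3.10 and 4.76 FPKM in Sal_CP, against 3.31, 2.68 and 2.03 FPKM in CP, with overlap. Cfap46, Cfap54 and Cfap74, which belong to a shared complex on the central pair, had ratios of 1.91, 2.17 and 1.499 without overlap, while Cfap221, of the same complex, had 1.09, 1.04 and 1.26 FPKM in Sal_CP, against 0.0593, 0.848 and 1.26 FPKM in CP. Cfap70 averaged 2.70 FPKM and Cfap47 0.132 FPKM over the 6 libraries, both with overlap.

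The other Cfap genes included Cfap298, with 14.1, 16.5 and 16.2 FPKM in Sal_CP, against 8.29, 11.1 and 12.8 FPKM in CP. Its groups did not overlap, and its log2 change was 0.52 (SE 0.28, limma adjusted p = 0.480). Cfap157 had 10.3, 13.5 and 13.0 FPKM in Sal_CP, against 5.19, 7.89 and 8.49 FPKM in CP, without overlap, and Cfap299 had 3.17, 4.73 and 3.20 FPKM in Sal_CP, against 1.20, 1.90 and 2.34 FPKM in CP, without overlap. Cfap299 had the smallest unadjusted p of these genes, with a log2 change of 0.75 (SE 0.26, limma adjusted p = 0.420). Cfap97d1, the most abundant of them, had 13.4, 14.1 and 19.6 FPKM in Sal_CP, against 10.1, 17.8 and 8.35 FPKM in CP, with overlap. Of the remaining ones, Cfap36 had a ratio of 1.74 without overlap, and Cfap58, Cfap97, Cfap300, Cfap410 and Cfap97d2 overlapped, at ratios of 1.52, 1.19, 1.16, 1.26 and 0.635. Dnah2os, the antisense transcript, was listed at 0.210 FPKM in Sal_CP replicate 1 and at 0 in the other 5 libraries.

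Levels were lower in members with longer transcripts. Across the 67 protein-coding members, mean FPKM and the length of the longest annotated transcript had a Spearman rho of -0.64, while the ratio between groups and length had a rho of 0.44. Genes are not independent replicates, and the points share the libraries. Of the 46 members tested, log2 change and length had a rho of -0.02, on a scale that understates the change of low genes. The filter had left out 12 of the 15 heavy chains, which have the longest transcripts. The rho values therefore cover unlike sets of members and cannot be compared. Among all genes tested, 154 had transcripts of at least 10 kb, and their median log2 change was -0.07, against -0.12 for the shorter ones. By annotation, 29 of the 68 members share exon bases with another gene, 26 of them with genes on the opposite strand alone. The other 3, Rsph10b, Cfap43 (up to 164 bases with Itprip) and Cfap299 (up to 277 bases with E030032P16Rik), share exon bases on their own strand, so their levels and changes are uncertain. The libraries keep strand, but whether the counting used it is not given in the sources used here.

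**Figure D4:**
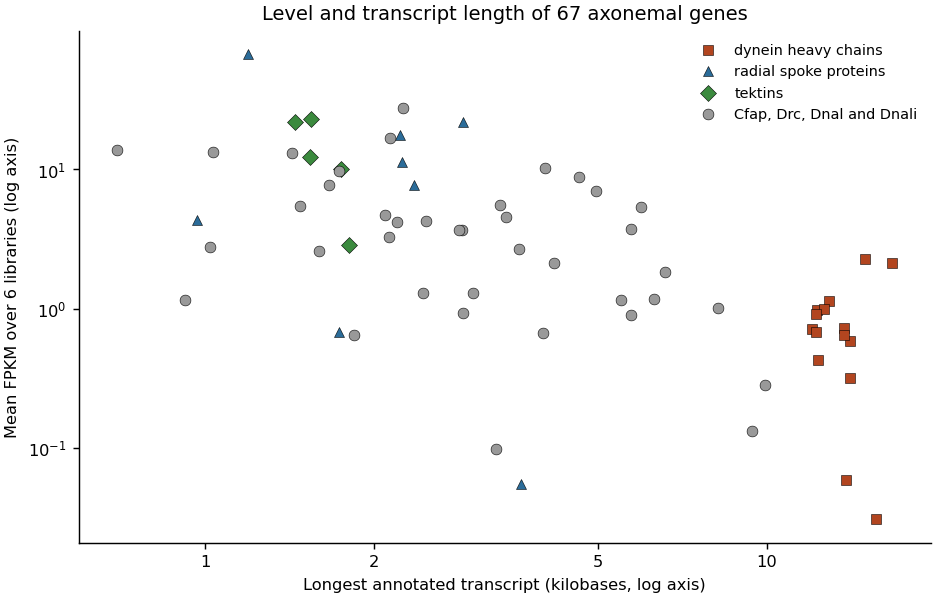
Mean FPKM over the 6 libraries (vertical, log axis) against the longest annotated transcript in kilobases (horizontal, log axis) for the 67 protein-coding members; marker shape gives the kind of gene. The 15 dynein heavy chains stand at the right below 3 FPKM, and Rsph1, at 66.9 FPKM, is the highest point.

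Axonemal genes with other names were described by lists chosen with earlier results of these data known. Of the 12 outer arm docking, ruler and unnamed arm subunits, 12 had a higher mean in Sal_CP, and 0 of the 10 tested were called (median log2 change 0.58). Their most abundant genes were Efcab1, Ttc25 and Dnaic1, and Dnaic1, an outer arm intermediate chain, had 4.95, 5.93 and 6.33 FPKM in Sal_CP, against 1.81, 2.29 and 5.76 FPKM in CP. Of the 15 spoke and regulatory complex genes with other names, 15 had a higher mean in Sal_CP, and 0 of 13 tested were called (median log2 change 0.53). Ropn1l, a spoke-associated protein, led them with 68.1, 84.3 and 81.4 FPKM in Sal_CP, against 23.7, 49.6 and 61.9 FPKM in CP, the groups not overlapping. The means were also higher in Sal_CP for 10 of 10 central apparatus genes with other names (median 0.58) and 12 of 12 doublet inner genes (median 0.60) with 0 called in either list.

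Of 16 dynein assembly factors, which fold and load the arms in the cytoplasm, 14 had a higher mean in Sal_CP (median log2 change 0.41, 0 called). Dnaaf1 led them with 53.6, 63.2 and 68.4 FPKM in Sal_CP, against 25.5, 44.5 and 41.4 FPKM in CP, and its groups did not overlap. Of 12 regulators of ciliary genes, 10 had a higher mean in Sal_CP, with 0 called. They included Rfx2 (above), Crem, a germ cell activator, with 16.2, 18.8 and 20.99 FPKM in Sal_CP, against 13.4, 11.8 and 9.30 FPKM in CP, and Foxj1, with 3.39, 4.13 and 2.86 FPKM in Sal_CP, against 0.739, 1.69 and 3.36 FPKM in CP. Crem was without overlap, and Foxj1 overlapped. Genes listed as cytoplasmic dynein, light chains among them, had a higher mean in Sal_CP in 9 of 15 cases. The median log2 change was 0.05 in the 13 tested, with 0 called. Their log2 changes ranged from -0.50 (Dync1li1) to 0.69 (Dynlrb2).

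Markers of the cell types that the libraries could hold were set beside the axonemal genes. All 10 late spermatid markers had a higher mean in Sal_CP, against 46.1% of all genes above 0, with a median log2 change of 0.43. In 0 of the 10 all Sal_CP values lay above all CP values, against 5.17% of all genes above 0. In CP, replicate 3 had the lowest late spermatid sum and the highest axonemal sum. In Sal_CP, replicate 1 had the lowest and replicate 3 the highest of both sums. Late spermatid markers summed to 47760, 66870 and 78740 FPKM there, and axonemal genes to 431.6, 530.4 and 551.3 FPKM. Of 14 spermatocyte markers, 12 had a higher mean in Sal_CP (median 0.53). All Sal_CP values lay above all CP values in 6 of them, against 5.17% of all genes above 0. Most of the list (Ldhc, Ccna1, Stag3, Smc1b, Sycp1, Sycp2, Sycp3 and Spo11) was lowest in CP replicate 1, as most axonemal genes were. Piwil1 had its lowest value, 0.350 FPKM, both there and in CP replicate 3. The remaining markers had other orders: Pgk2, the most abundant, and Hormad1 were lowest in CP replicate 3. Rec8 was lowest in CP replicate 2, and Dmc1 and Meiob in Sal_CP replicate 1. Stag3, a meiotic cohesin, had 7.06, 7.87 and 5.17 FPKM in Sal_CP, against 1.41, 3.26 and 5.35 FPKM in CP.

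Of the 8 epithelial junction and keratin markers, 7 had all Sal_CP values below all CP values (6.93% of genes above 0), with 0 called, and the median log2 change was -1.14. The exception was Cldn3, which had 403.2, 551.4 and 452.4 FPKM in Sal_CP, against 486.2, 306.5 and 243.7 FPKM in CP. With Cldn3, the list summed to 543.1 to 688.4 FPKM in Sal_CP and 598.6 to 800.0 FPKM in CP. Of the 11 multiciliated epithelium markers, Deup1, at 98.3, 130.9 and 129.2 FPKM in Sal_CP, against 107.4, 92.5 and 60.6 FPKM in CP, held nearly all of the summed level, while Mcidas, Gmnc and Ccdc78 were at or below 0.276 FPKM in every library. Of the 8 epididymal markers, 3 had a higher mean in Sal_CP, as had 5 of 8 leukocyte markers and 3 of 8 Sertoli and Leydig markers, all with 0 called. Leukocyte markers summed to 209.9, 51.0 and 35.3 FPKM in Sal_CP, against 100.2, 78.9 and 44.96 FPKM in CP, an order of libraries unlike that of the axonemal genes. Cd68 alone had 133.2 FPKM of this sum in Sal_CP replicate 1, and 13.6 to 36.1 FPKM in the other libraries. The part of these markers in the axonemal result was not tested.

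**Figure D5:**
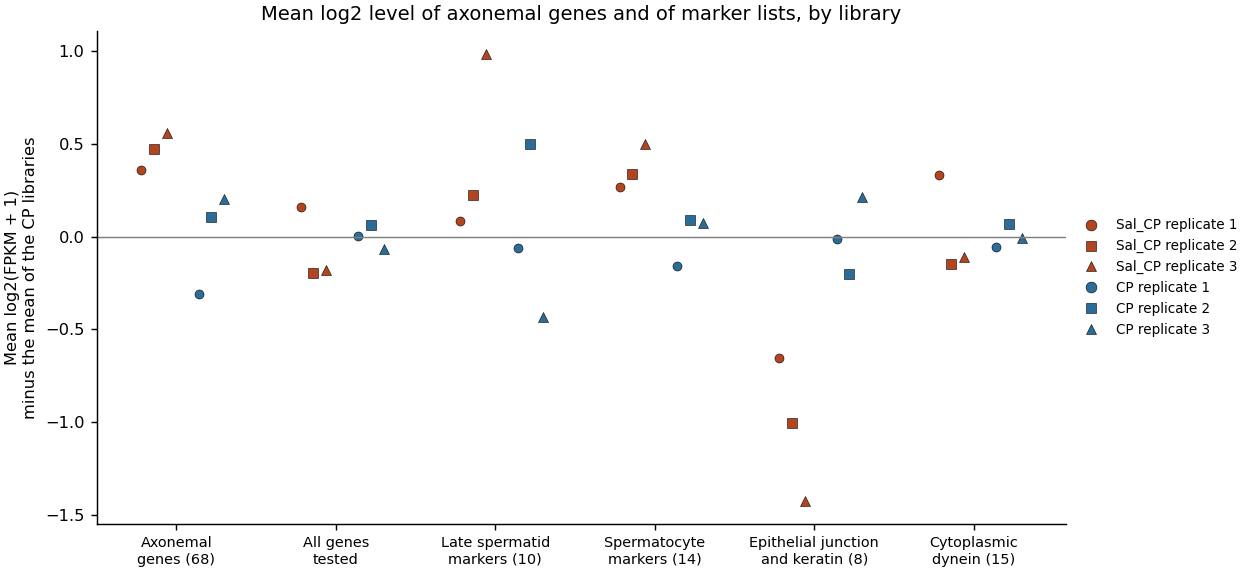
Mean log2(FPKM + 1) of each list in each library, minus the mean of the 3 CP libraries (vertical), for the axonemal genes, all genes tested, 3 marker lists and cytoplasmic dynein; symbols mark the replicate, and Sal_CP stands left of CP. Axonemal and spermatocyte genes are higher in all 3 Sal_CP libraries and CP replicate 1 is lowest, while the epithelial markers are lower in all 3 Sal_CP libraries.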

How the data were processed

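RNA-seq values of 6 mouse libraries (3 Sal_CP, 3 CP, by their titles) were analysed. Per the labels' protocols, strand-keeping libraries were sequenced as paired reads of 150 bases. Per the submitters' processing notes, GRCm38 was the build. The aligner, the counter and the authors' test were not given in the sources used here. FPKM computed by the authors, scaled by transcript length and library total, are the deposited values. Read counts were not used, so depth is unknown and counting intervals are left out. The authors' deposited ratio (fold) column equals the ratio of mean FPKM and their log2 column is its logarithm. Their deposited p-value and q-value columns come from a test that is not given.

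Values were taken as log2(FPKM + 1) for the 12241 genes whose mean reached 1 FPKM. limma 3.58.1 (R 4.3.3) compared the groups with a variance trend, on 4 residual and 7.76 prior degrees of freedom, with Benjamini-Hochberg adjustment over all genes tested. Fold changes on this scale understate the change of low genes. A change is Sal_CP minus CP, and an error after ± is an SD of 3 libraries. The fit was tested on simulated data. Coordinates come from GENCODE M21 on GRCm38, which matched all 68 members and 99.7% of genes, and promoters from RefSeq. No libraries held identical values. Figures were drawn with matplotlib 3.10.9.

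The members, classes, gene lists and marker lists were chosen with earlier results of these data known. Named in each class were the 3 of highest mean FPKM and the tested gene of smallest p in each direction, with all outer arm heavy chains, Rsph4a, Rsph6a and tektins. Further members were named after their values were seen, to account for every member. Alternatives tried were another pseudocount, filter, scaling or limma option, the replicate number as a block, and each library left out in turn.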

Additional observations from a re-analysis of the deposited data

How the results depend on the processing

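In 16 alternative settings, 0 members passed the threshold in any, and 30 of the 32 named members that were tested kept their sign. The smallest limma adjusted p of a member, 0.367, was 0.0709 without Sal_CP replicate 1 and 0.0726 with the replicate number as a block. It was 0.810 without CP replicate 1. The median log2 change of the members tested, 0.60, was 0.38 without CP replicate 1 and ranged up to 0.75 when a library was left out. The median of all genes tested shifted by 0.15 to 0.0309 with median of ratios scaling, where that of the members was 0.80, or 0.77 above all genes. The shift was 0.11 with no filter and -0.18 without Sal_CP replicate 1. With a filter at a mean of 5 FPKM, 22 members were tested and 21 had a change above 0. The 9 genes called became 0 with no filter, 0 with median of ratios scaling and 5 with quantile normalization, and 0 to 13 when a library was left out (0 without Sal_CP replicate 1, 1 without Sal_CP replicate 2). The authors' deposited q called 1 member. The median of the light chain genes Dnal1, Dnal4 and Dnali1 turned to -0.13 with no filter and -0.19 without mitochondrially encoded genes. Both values are those of Dnal4, the middle gene once Dnal1, left out by the filter of the main fit, was tested too. Cfap53 turned to -0.0111 without CP replicate 1 (range when a library was left out, -0.0111 to 0.291), and Dnal4 to 0.0690 with median of ratios scaling. Why Cfap53 and Dnal4 turned was not tested. With the replicate number as a block, 280 genes and 0 members were called. The labels do not say whether the numbers pair the samples. The deviations of same-numbered libraries correlated at 0.196, -0.115 and -0.0644, and not every library correlated best with its own number. With so few libraries, these correlations cannot decide whether same-numbered libraries share a batch. Unknown read depth limits what can be said of members under 1 FPKM.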
